A study of Homo sapiens with 6 samples.

Results

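The genes described here are 10 genes of the mesenchymal program, the transcription factors ZEB1, ZEB2, SNAI1, SNAI2, TWIST1, TWIST2 and PRRX1, the intermediate filament protein vimentin (VIM), and the mesenchymal cadherins CDH2 and CDH11. They were taken by name, with earlier results of these data known but no measured value in the rule, as the rows of a gene count table whose Ensembl identifiers carry these symbols in GENCODE 44. The 10 genes were found among 58676 identifiers, and all 10 passed the count filter (a sum of 10 or more over the libraries), which left 19072 genes to test. The counts came from RNA-Seq of the human lung fibroblast line MRC5, kept for 24 h in conditioned media (CM) from ATIIER:KRASV12 cells. ATIIER:KRASV12 is a human alveolar type II (ATII) epithelial line that carries an inducible KRASV12 protein, which is switched on by 4-hydroxytamoxifen (4-OHT). The control group (control ATII CM, n = 3) received CM from cells without 4-OHT, and the other group (4-OHT ATII CM, n = 3) received CM from 4-OHT-treated cells. Both groups were the same MRC5 line, grown in DMEM with serum, and the comparison asked how fibroblasts respond to signals from RAS-activated epithelium. MRC5 is 1 cell line, and no arm of the labels exposes fibroblasts to 4-OHT without RAS activation, so carried-over 4-OHT and the RAS-induced secretions cannot be told apart. The labels do not say that replicates were separate cultures, so that p-values measure the spread between these libraries, which may be technical.

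Epithelial-mesenchymal transition is the program by which epithelial cells lose their junctions and acquire the shape and motility of mesenchymal cells. Its core factors of the ZEB, SNAI and TWIST families bind E-box letters in DNA, and ZEB and SNAI proteins repress CDH1, the gene of the epithelial cadherin. Fibroblasts are mesenchymal from the outset, so that these factors, vimentin and CDH2 are expressed in them without any transition, and PRRX1 is a homeobox factor of mesenchymal cells.

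The libraries held 17691849 to 26389449 counts assigned to genes, and the normalization factors lay between 0.992 and 1.01. Levels are given as CPM, the gene counts scaled to a fixed library total with TMM factors, with mean ± SD over 3 libraries, and differences as the log2 fold change of 4-OHT ATII CM over control ATII CM with its standard error (SE) from the quasi-likelihood test of edgeR, adjusted by the Benjamini-Hochberg method over all 19072 genes. A gene with an adjusted p under 0.05 was called a differentially expressed gene (DEG). Of all genes tested, 1090 were DEGs (5.72%), with 563 upregulated (2.95%) and 527 downregulated (2.76%). Fibroblast markers were abundant, at a summed 40180 to 43944 CPM per library, and COL1A1 was the highest of them per kilobase. Markers of ATII cells were at a summed 1.07 to 1.99 CPM, with SFTPA1, SFTPA2, SLC34A2 and NKX2-1 at 0 counts in every library and ABCA3 the highest per kilobase. Principal components were taken of the 9691 genes with a mean log2 CPM above 3. The 3 control libraries lay apart from the other 3 on the first component, with 43.4% of the variance. Control replicate 2, the library with the fewest counts, stood apart on the next one, with 23.3%.

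Of the 10 genes, CDH11 was upregulated and VIM downregulated, and the other 8 did not pass the test. The share of DEGs was thus 20% of the 10 genes, against 5.72% of all genes tested and 10.2% of the 9202 genes with a mean of at least 10 CPM. The differences were small. The median log2 fold change of the 10 genes was 0.11, against -0.0020 for all genes tested, and the single genes ranged from -0.10 (VIM) to 0.25 (SNAI1). Of the 10 genes 6 had an unadjusted p under 0.05, against 17.3% of all genes tested, and in 7 the groups did not overlap, against 22.1%. All 10 genes had a mean of at least 10 CPM, and these shares were not computed among genes at that level. Among the 9202 genes at that level the median absolute log2 fold change was 0.065, against 0.11 for the 10 genes. An absolute log2 fold change above 0.1 was found in 32.0% of the 9202 genes. In 6 genes (ZEB1, ZEB2, SNAI1, SNAI2, TWIST2 and CDH11) every 4-OHT ATII CM library lay above every control library, a pattern found in 11.7% of all genes tested, and in VIM every 4-OHT ATII CM library lay below, a pattern found in 10.4%. For TWIST2 and SNAI1 the lowest 4-OHT ATII CM library lay barely above the highest control library.

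**Figure D1:**
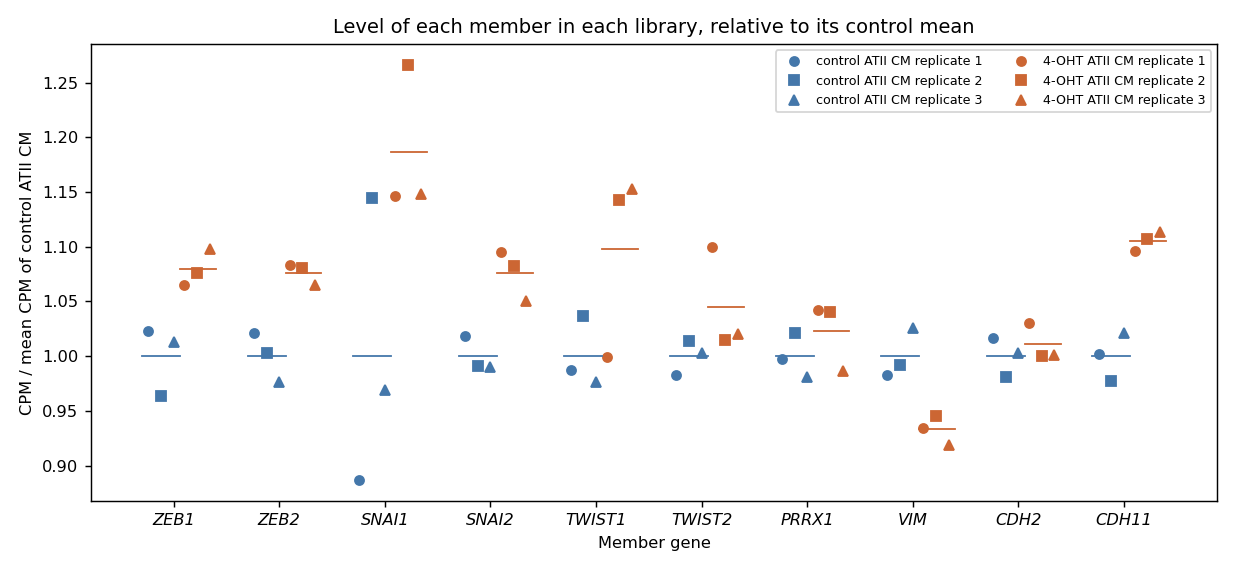
CPM of each gene in each of the 6 libraries, divided by the gene's mean over the 3 control ATII CM libraries, with horizontal bars at the group means and marker shapes for replicates 1 to 3. The orange points of CDH11 lie above all of its blue points and those of VIM below, at group means of 374 against 339 CPM and of 1313 against 1408 CPM, whereas the points of PRRX1, TWIST1 and CDH2 are intermingled.

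ZEB1 and ZEB2 encode large zinc finger and homeobox repressors that recruit CtBP corepressors to E-boxes. ZEB1 (ENSG00000148516, GRCh38 chromosome 10, 31318495 to 31529814, plus strand) was at 302, 285 and 299 CPM in control replicates 1, 2 and 3 and at 315, 318 and 324 CPM in 4-OHT ATII CM replicates 1, 2 and 3. The groups did not overlap, with control replicate 2 the lowest library. The means were 295 ± 9.40 and 319 ± 4.97 CPM, a log2 fold change of 0.11 (SE 0.0337, 95% interval 0.039 to 0.18) that missed the threshold (edgeR adjusted p = 0.0719). With DESeq2 in place of edgeR the adjusted p of ZEB1 was 0.0424, so that the call of this gene turned on the tool, and without control replicate 2 the log2 fold change was 0.085 (edgeR adjusted p = 0.0811).

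ZEB2 (ENSG00000169554, chromosome 2, 144364364 to 144524583, minus strand) was at 99.5, 97.8 and 95.2 CPM in the control libraries and at 105.6, 105.3 and 103.8 CPM in the 4-OHT ATII CM libraries. Again no control library reached the lowest 4-OHT ATII CM library. The log2 fold change was 0.11 (SE 0.0364) with an interval of 0.029 to 0.18, and the edgeR adjusted p was 0.116. With trends on gene length and GC content removed, the log2 fold change of ZEB2 was 0.18 and the edgeR adjusted p 0.0325. Exons of ZEB1 share 366 bases (4.23% of its exon length) with exons of the antisense gene ZEB1-AS1, which had 118 to 170 counts per library against 5085 to 8528 for ZEB1. ZEB2 shares 1299 bases (5.18%) with ZEB2-AS1, which had 1 to 3 counts. The library kit does not mark strand, and reads in such shared bases cannot be assigned to either gene with certainty.

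ZEB1 is also a gene whose promoter windows in RefSeq (GRCh38.p14) hold E-box letters, and 250 bases before 1 of its 7 annotated starts are shown as the window that held both CAGGTG, the letters of the ZEB and SNAI recognition site, and CAGATG. The window lies at chr10:31318167-31318416 on the plus strand and reads 5′ to 3′, with the E-box letters CAGGTG in capitals. The letters CATCTG, which read as the E-box word CAGATG on the opposite strand, and the GC box letters GGGCGG are in capitals too.
ZEB1: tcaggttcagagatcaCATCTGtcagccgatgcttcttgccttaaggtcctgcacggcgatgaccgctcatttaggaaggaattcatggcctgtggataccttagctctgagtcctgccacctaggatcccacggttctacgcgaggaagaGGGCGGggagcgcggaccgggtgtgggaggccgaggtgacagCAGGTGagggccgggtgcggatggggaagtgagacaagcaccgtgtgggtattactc
Counted to the left from the start, the first base of CAGGTG is at -57, that of GGGCGG at -99 and that of CATCTG at -234. RefSeq windows of 300 bases (250 before and 50 after a start) were at hand for 6 of the 10 genes (ZEB1, ZEB2, TWIST2, PRRX1, VIM and CDH2), 13 windows in all. CAGGTG, searched on both strands (CACCTG on the other), was in 2 of the 13 windows, both of ZEB1 (1 copy in the window shown and 3 in that at chr10:31318966-31319265), against 20.6% of all 35116 windows. CAGATG was in 2 windows, 1 of ZEB1 and 1 of CDH2, against 14.7% of all windows, and CATATG was in 0 against 3.04%. These letters do not overlap one another, and a match describes the sequence and is not a measured binding site.

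SNAI1 and SNAI2 encode the Snail and Slug zinc finger repressors. SNAI1 (ENSG00000124216, chromosome 20, 49982999 to 49988886, plus strand) was the least abundant of the 10 genes in CPM, with 175, 189 and 203 counts (8.20, 10.58 and 8.96 CPM) in the control libraries and 232, 292 and 279 counts (10.60, 11.7 and 10.6 CPM) in the 4-OHT ATII CM libraries. Control replicate 2 stood above the other control libraries and all but reached the lowest 4-OHT ATII CM value. SNAI1 had the highest log2 fold change of the 10 genes, 0.25, and also the largest error (SE 0.1002, interval 0.041 to 0.47), and it did not pass the test (edgeR adjusted p = 0.183). Without control replicate 2 the log2 fold change was 0.35 and the edgeR adjusted p 0.0344. This was the only 1 of 16 alternative fits in which SNAI1 passed the test. Without control replicate 1 its log2 fold change was 0.17 (edgeR adjusted p = 0.477). SNAI2 (ENSG00000019549, chromosome 8, 48917604 to 48921740, minus strand) was at 108.7, 105.8 and 105.7 CPM in the control libraries and at 116.9, 115.6 and 112.1 CPM in the 4-OHT ATII CM libraries. Its groups were separated, with control replicate 1 the highest control library and 4-OHT ATII CM replicate 3 the lowest of its group. The log2 fold change of SNAI2 was 0.10 (SE 0.0365, interval 0.027 to 0.18) with an edgeR adjusted p of 0.123.

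TWIST1 and TWIST2 encode closely related basic helix-loop-helix factors of mesenchymal cells. TWIST1 (ENSG00000122691, chromosome 7, 19020991 to 19117672, minus strand) was at 19.7, 20.7 and 19.5 CPM in the control libraries and at 19.9, 22.8 and 23.0 CPM in the 4-OHT ATII CM libraries. 4-OHT ATII CM replicate 1 lay within the control range while the other two lay above it. Its log2 fold change of 0.14 (SE 0.0697) had an interval from -0.0084 to 0.29 (edgeR adjusted p = 0.323). TWIST2 (ENSG00000233608, chromosome 2, 238848032 to 238910543, plus strand) was at 43.2, 44.626 and 44.1 CPM in the control libraries and at 48.4, 44.632 and 44.9 CPM in the 4-OHT ATII CM libraries. Here it was replicate 1 alone that lay clearly above the control range. The log2 fold change of TWIST2 was 0.062 (SE 0.0457, interval -0.035 to 0.16, edgeR adjusted p = 0.551). It was 0.030 without 4-OHT ATII CM replicate 1 and 0.11 with all libraries thinned to the smallest total.

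PRRX1 (ENSG00000116132, chromosome 1, 170662728 to 170739419, plus strand) was at 50.04, 51.2 and 49.2 CPM in the control libraries and at 52.3, 52.2 and 49.5 CPM in the 4-OHT ATII CM libraries. 4-OHT ATII CM replicate 3 lay at the level of the control libraries, and the log2 fold change of 0.033 (SE 0.0420) had an interval of -0.056 to 0.12 (edgeR adjusted p = 0.766). With single libraries left out, the log2 fold change of PRRX1 ranged from 0.013 (without control replicate 3) to 0.056 (without 4-OHT ATII CM replicate 3), and it was 0.019 without 4-OHT ATII CM replicate 2 and with length and GC trends removed.

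VIM encodes vimentin, the main intermediate filament protein of fibroblasts. VIM (ENSG00000026025, chromosome 10, 17228259 to 17237593, plus strand) was at 1384, 1396 and 1444 CPM in the control libraries and at 1315, 1331 and 1293 CPM in the 4-OHT ATII CM libraries. Every 4-OHT ATII CM library lay below every control library. The mean fell from 1408 ± 31.9 to 1313 ± 19.2 CPM, a change of -6.71%, with a log2 fold change of -0.10 (SE 0.0273, interval -0.16 to -0.042) and an edgeR adjusted p of 0.0414. The DESeq2 adjusted p was 0.0134. The edgeR call was close to the threshold, and it was lost without control replicate 3 (adjusted p = 0.158) and without 4-OHT ATII CM replicate 1, 2 or 3 (0.128, 0.0759 and 0.212), as well as without a filter on low counts (0.0606). VIM shares 641 bases (12.4% of its exon length) with the antisense gene VIM-AS1, which had 8 to 20 counts per library against 24925 to 33988 for VIM.

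The RefSeq window of VIM held none of the 3 E-box words and, like 8 of the 13 windows, held GGGCGG or its complement CCGCCC, letters that 45% of all windows hold and that were added to the search after the data had been seen. Its 250 bases before the start, at chr10:17227991-17228240 on the plus strand, are shown beside the window of ZEB1 as the member that fell, 5′ to 3′ with GGGCGG in capitals at -46.
VIM: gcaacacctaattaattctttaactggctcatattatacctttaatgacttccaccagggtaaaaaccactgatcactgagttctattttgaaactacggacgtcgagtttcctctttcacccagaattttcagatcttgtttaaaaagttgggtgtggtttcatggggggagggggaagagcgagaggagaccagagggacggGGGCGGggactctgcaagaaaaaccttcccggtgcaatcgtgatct

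**Figure D2:**
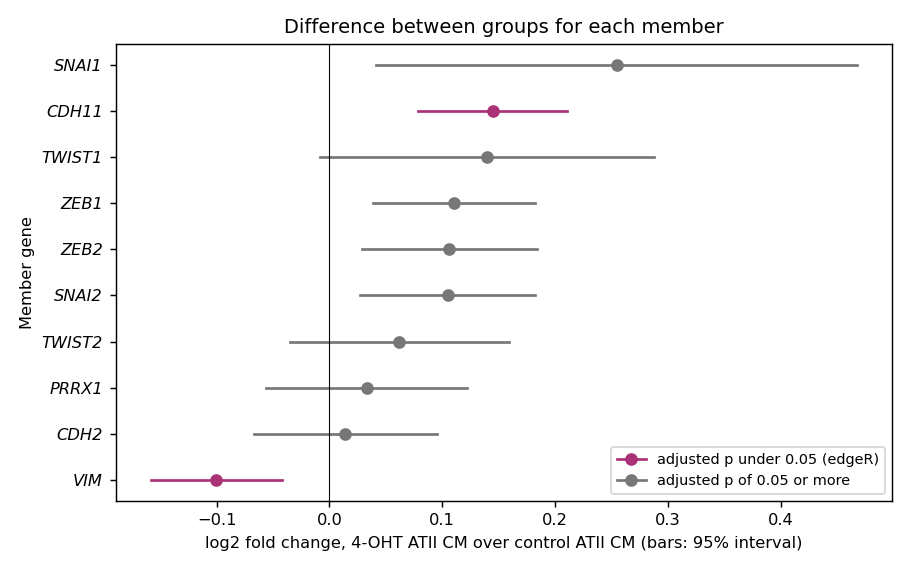
The log2 fold change of 4-OHT ATII CM over control ATII CM (points) with 95% intervals (bars) for the 10 genes, in the order of the fold change and coloured by whether the edgeR adjusted p was under 0.05. Only the bars of CDH11 and VIM are coloured as DEGs, and the bar of SNAI1, from 0.041 to 0.47, is the widest.

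Vimentin belongs to a family of filament genes, and the other members of a list of 14 intermediate filament and filament-linker genes were compared with it. Of the 12 tested, 6 were downregulated (50%, against 2.76% of all genes tested) and 0 upregulated, with a median log2 fold change of -0.21 (-0.0020 for all genes tested). NEFM had 0 counts in every library. LMNB1, the gene of nuclear lamin B1, fell from 34.2 ± 0.923 to 23.8 ± 0.788 CPM, a log2 fold change of -0.52 (edgeR adjusted p = 3.01e-05). PLEC, whose product plectin links filaments to junctions, fell from 328 ± 33.3 to 246 ± 3.80 CPM (log2 fold change -0.41, edgeR adjusted p = 0.000257). Beside the decrease of VIM by 0.10 on the log2 scale, NES, the gene of nestin, fell by 0.26, LMNB2 by 0.23, LMNA by 0.16 and SYNM, the gene of synemin, by 0.48. Without 4-OHT ATII CM replicate 2 only 3 of these 6 passed the test, with LMNB2, LMNA and SYNM lost, and LMNA was also lost without 4-OHT ATII CM replicate 1 or 3. Without control replicate 2 the log2 fold change of LMNA was -0.11 (edgeR adjusted p = 0.0131). SYNM was a low gene, at 5.20 ± 0.397 and 3.70 ± 0.308 CPM, and lost its call in each of the 6 fits without 1 library. LMNB2 shares 4.73% of its exon length with TIMM13. Neither KRT8 nor KRT18, the keratins of simple epithelia, passed the test, at 32.5 ± 1.72 and 33.7 ± 1.08 CPM for KRT8 and at 53.5 ± 1.01 and 51.8 ± 2.94 CPM for KRT18. DES, the desmin gene, had the highest log2 fold change of the list, 0.43, at 1.66 ± 0.478 and 2.26 ± 0.405 CPM, and did not pass the test either (edgeR adjusted p = 0.357).

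CDH11 encodes cadherin 11, an adhesion protein of mesenchymal cells, and CDH2 encodes N-cadherin. CDH11 (ENSG00000140937, chromosome 16, 64943753 to 65126112, minus strand) was at 339, 331 and 346 CPM in the control libraries and at 371, 375 and 377 CPM in the 4-OHT ATII CM libraries. The 4-OHT ATII CM libraries were tightly grouped and all lay above the control libraries. The mean rose from 339 ± 7.55 to 374 ± 2.98 CPM, a change of 10.5%, with a log2 fold change of 0.14 (SE 0.0312, interval 0.078 to 0.21) and an edgeR adjusted p of 0.0108, rank 549 of all genes tested. The DESeq2 adjusted p was 0.000810. Without 4-OHT ATII CM replicate 2 or 3 the call was lost (edgeR adjusted p = 0.0576 and 0.0804), whereas without control replicate 2 it held (0.00551). CDH11 shares 254 bases (1.90% of its exon length) with ENSG00000278893 on the same strand, which had 0 to 5 counts.

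CDH2 (ENSG00000170558, chromosome 18, 27950966 to 28177446, minus strand) was at 62.3, 60.1 and 61.4 CPM in the control libraries and at 63.1, 61.3 and 61.3 CPM in the 4-OHT ATII CM libraries. The groups overlapped, although 4-OHT ATII CM replicate 1 was the highest library and control replicate 2 the lowest. The log2 fold change was 0.014 (SE 0.0380) with an interval of -0.067 to 0.095, so that a change of 0.1 or more in either direction lay outside it (edgeR adjusted p = 0.908). Leaving out single libraries gave 0.0011 (without control replicate 2) to 0.024 (without control replicate 1).

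The number of CDH2 counts per CDH11 count in the same library needs no normalization. It was 0.184, 0.182 and 0.178 in the control libraries and 0.170, 0.163 and 0.163 in the 4-OHT ATII CM libraries. The ratio was lower in all 3 of the latter, with a difference of -0.13 on the log2 scale. The exact two-sided permutation test gave p = 0.1, and 0.4 after Benjamini-Hochberg adjustment over 4 ratios. The unadjusted value is the smallest that this test allows with 3 against 3 libraries, so that the test cannot pass 0.05 here. The other 3 ratios were of paralogs. ZEB1 to ZEB2 was 1.599 ± 0.0556 and 1.604 ± 0.0355 on the log2 scale (exact permutation p = 1, adjusted 1). SNAI1 to SNAI2 was -3.54 ± 0.205 and -3.39 ± 0.0808 (exact permutation p = 0.3, adjusted 0.6), and TWIST1 to TWIST2 was -1.14 ± 0.0356 and -1.07 ± 0.180 (exact permutation p = 0.5, adjusted 0.667). In these 3 ratios the groups' libraries overlapped, and their differences moved by over 1.5 times when 1 library was left out. The difference in the SNAI1 to SNAI2 ratio was 0.15 on the log2 scale, 0.052 without control replicate 1 and 0.26 without control replicate 2. The difference in the TWIST1 to TWIST2 ratio was 0.070, with 0.17, 0.019 and 0.017 without 4-OHT ATII CM replicate 1, 2 and 3. For ZEB1 to ZEB2 it was 0.0047, and -0.024 without control replicate 2.

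Among the other classical and related cadherins, 7 of 17 passed the count filter. Of these 7, 1 was upregulated and 2 were downregulated (42.9%, against 5.72% of all genes tested). CDH6, a cadherin of kidney and neural crest lineages, rose from 85.1 ± 4.58 to 99.0 ± 3.41 CPM, a log2 fold change of 0.22 (edgeR adjusted p = 0.00770). CDH13, the gene of the GPI-anchored T-cadherin, fell from 126 ± 2.09 to 109.6 ± 3.29 CPM (log2 fold change -0.20, edgeR adjusted p = 0.00412). CDH4, the gene of R-cadherin and the nearest relative of CDH2, fell from 11.7 ± 0.171 to 8.83 ± 0.791 CPM (log2 fold change -0.41, edgeR adjusted p = 0.0115), and its call was lost without 4-OHT ATII CM replicate 1 or 2. Cadherin genes thus passed the test in both directions, with CDH11 and CDH6 higher and CDH13 and CDH4 lower. CDH5, CDH7, CDH8, CDH12 and CDH19 had 0 counts in every library, which at this depth allows up to 0.114 to 0.168 CPM (3 counts per library, covering counting error only). CDH1, the epithelial cadherin that ZEB and SNAI factors repress, had 0, 0 and 1 counts in the control libraries and 3, 0 and 0 in the 4-OHT ATII CM libraries, so that no difference in it could be detected at this depth. Of the catenins and junction proteins that anchor cadherins to actin, 8 of 11 were tested and 0 were DEGs by edgeR, DESeq2 or limma-voom (1 had an unadjusted edgeR p under 0.05). The highest of them per kilobase, VCL (vinculin), was at 851 ± 23.4 and 848 ± 6.71 CPM, with 11.1% of its exon length shared with AP3M1.

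**Figure D3:**
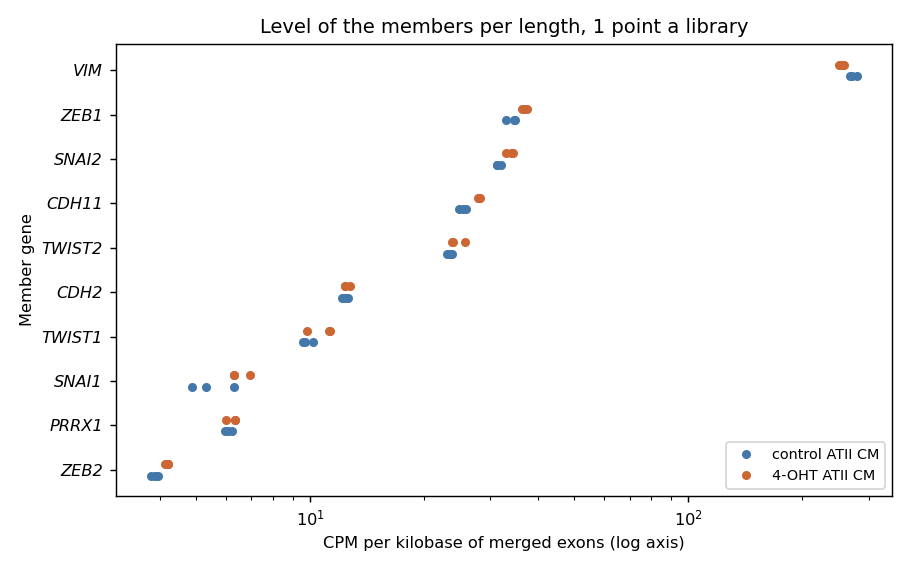
Level of each gene in CPM per kilobase of merged exons, on a log axis, with 1 point a library. VIM stands far to the right at 251 to 280 CPM per kilobase and the other 9 genes lie between 3.80 and 37.5.

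Levels can be compared between genes only per length. On the scale of CPM per kilobase of merged exons, VIM was highest with 273 in control ATII CM and 255 in 4-OHT ATII CM. It was followed by ZEB1 (34.2 and 36.9), SNAI2 (31.5 and 33.9), CDH11 (25.3 and 27.98) and TWIST2 (23.4 and 24.5). CDH2 (12.4 and 12.5) and TWIST1 (9.80 and 10.8) were next, and PRRX1 (6.08 and 6.22), SNAI1 (5.48 and 6.51) and ZEB2 (3.89 and 4.19) were lowest. In 8 of the 9 neighbouring pairs of this order the ranges of the libraries did not overlap in either group, and the exception was PRRX1 and SNAI1. Within each paralog pair the same gene was thus the higher one in every library, namely ZEB1 over ZEB2, SNAI2 over SNAI1 and TWIST2 over TWIST1. The merged length pools the exons of all annotated isoforms, and the 25058 bases of ZEB2, against 8650 of ZEB1, lower its value on this scale. VIM stood at the 99.5th percentile of the genes tested and ZEB1 at the 94.1st.

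Further factors of the transition program were measured in a list of 13, of which 12 were tested and GSC had 0 counts in every library. Of the 12, 1 was upregulated and 1 downregulated (16.7%, against 5.72% of all genes tested). PRRX2, the paralog of PRRX1, was the upregulated one. It was at 45.4, 51.2 and 48.3 CPM in the control libraries and at 57.9, 55.2 and 56.7 CPM in the 4-OHT ATII CM libraries, a log2 fold change of 0.23 (SE 0.0468, edgeR adjusted p = 0.00724). FOXC2, a forkhead factor of mesenchyme, was downregulated from 8.01 ± 0.237 to 5.98 ± 0.587 CPM (log2 fold change -0.42, edgeR adjusted p = 0.0298), but not with DESeq2 (adjusted p = 0.0566), nor without control replicate 1 or 3 or 4-OHT ATII CM replicate 1 or 2. The median log2 fold change of this list was 0.085, and the highest of it per kilobase, the cold shock protein gene YBX1, was at 805 ± 38.5 and 749.9 ± 1.39 CPM (edgeR adjusted p = 0.10005).

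Proteins that work with or degrade the ZEB, SNAI and TWIST factors were covered by 21 genes, all tested. Of these, 3 were upregulated and 3 downregulated, with a median log2 fold change of 0.0094. The share of DEGs was 28.6%, against 5.72% of all genes tested and 10.2% of genes with a mean of at least 10 CPM. The upregulated genes were ID1, ID2 and ID3, which encode dominant-negative partners of basic helix-loop-helix proteins. ID2 was at 54.7, 61.0 and 56.2 CPM in the control libraries and at 75.2, 73.4 and 71.6 CPM in the 4-OHT ATII CM libraries, a log2 fold change of 0.36 (SE 0.0445, edgeR adjusted p = 0.000165). ID3 rose by 0.31 (edgeR adjusted p = 0.00451) and ID1 by 0.23 (edgeR adjusted p = 0.0135), and ID1 lost its call without control replicate 1 or without 4-OHT ATII CM replicate 2 or 3. The downregulated genes were EZH2, the histone methyltransferase of Polycomb complex 2, at 18.2 ± 1.02 and 14.2 ± 0.727 CPM (log2 fold change -0.36, edgeR adjusted p = 0.00724), the Ajuba family gene LIMD1 (-0.16, edgeR adjusted p = 0.0185) and the lysyl oxidase-like gene LOXL2 (-0.10, edgeR adjusted p = 0.0356). EZH2 passed the test in all 16 alternative fits, and LIMD1 and LOXL2 in 9 of them each.

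**Figure D4:**
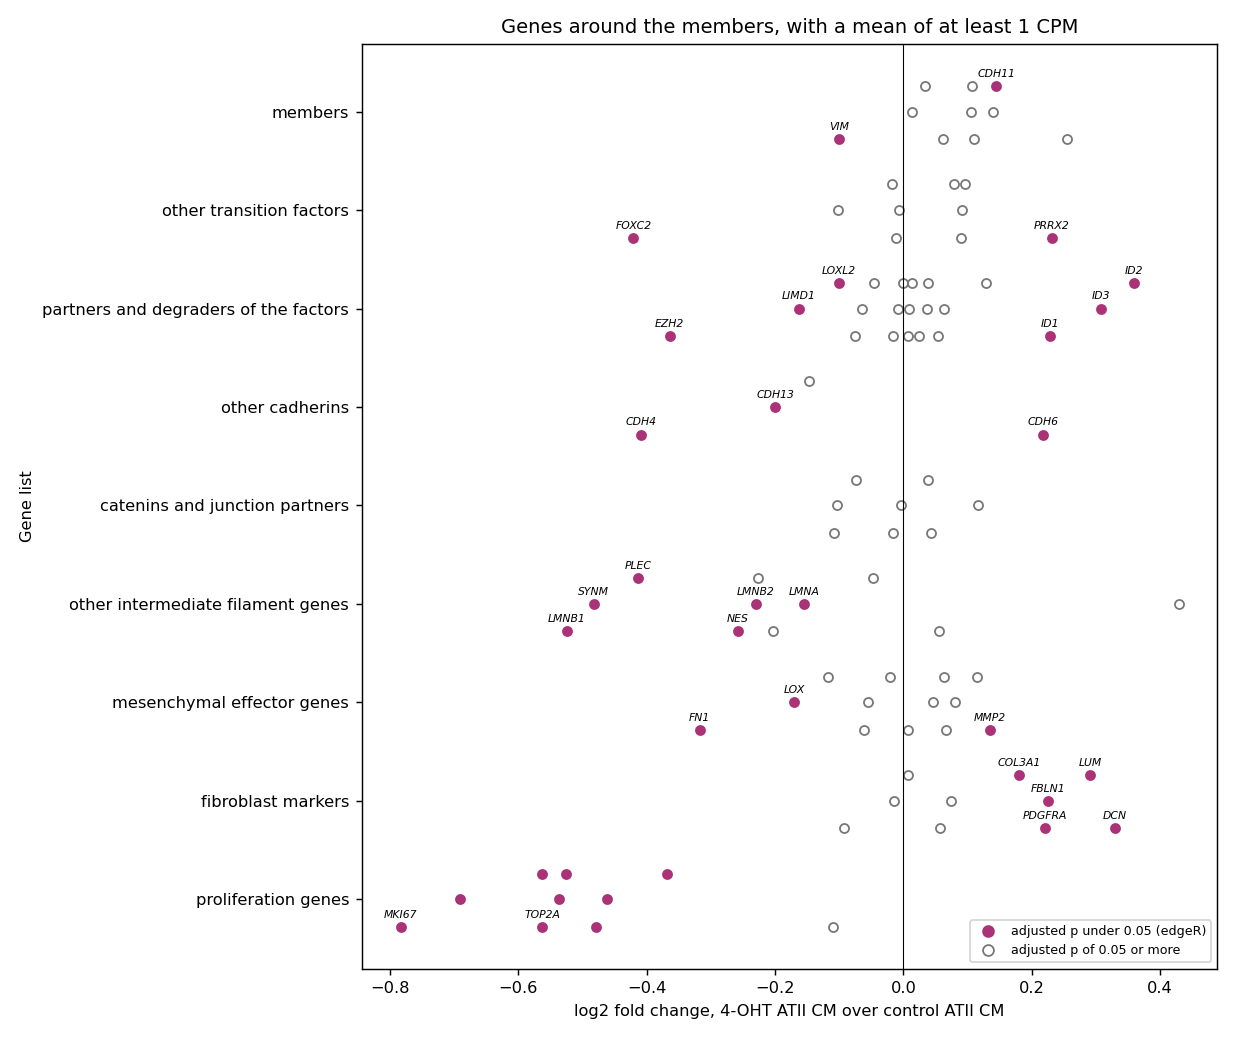
The log2 fold change of each gene with a mean of at least 1 CPM in the 10 genes and in lists around them, with filled points for an edgeR adjusted p under 0.05. The epithelial, ATII, endothelial and leukocyte lists and 1 effector gene are not drawn. The 6 filament DEGs lie to the left of 0, from -0.52 for LMNB1 to -0.16 for LMNA, with DES (0.43) and KRT8 (0.056) as unlabelled open points to the right, and the ID genes, PRRX2, CDH6 and CDH11 lie to the right.

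Of 14 effector genes of the mesenchymal state, 1 was upregulated and 3 were downregulated, and their median log2 fold change was -0.0069. DEGs were thus 28.6% of this list, against 5.72% of all genes tested and 10.2% of genes with a mean of at least 10 CPM. MMP2, the gelatinase A gene, rose from 1413 ± 24.6 to 1552 ± 6.53 CPM (log2 fold change 0.14, edgeR adjusted p = 0.00454), and its call was lost without 4-OHT ATII CM replicate 3 (0.05005). FN1, the fibronectin gene, was lower by 0.32 on the log2 scale (edgeR adjusted p = 0.0107), at 7503, 5651 and 7274 CPM in the control libraries and 5538, 5416 and 5440 CPM in the 4-OHT ATII CM libraries. Control replicate 2 of FN1 lay far below the other control libraries, and without it the log2 fold change was -0.43 (edgeR adjusted p = 2.00e-10), while the call was lost with DESeq2 and without control replicate 3 or 4-OHT ATII CM replicate 2. LOX, a collagen cross-linking enzyme gene, fell by 0.17 on the log2 scale (edgeR adjusted p = 0.00427). SPARC, the highest of the list per kilobase, was at 3538 ± 44.8 and 3486 ± 40.4 CPM (edgeR adjusted p = 0.711).

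The listed genes of the epithelial state, among them known repression targets of ZEB and SNAI proteins, were low or undetected. KRT8 and KRT18, counted with the filament genes and not in this list, were at 32.5 and 53.5 CPM in control ATII CM. Of 24 listed, ESRP1, OVOL2, GRHL2, ST14 and MIR200CHG had 0 counts in every library, another 9 were under 10 counts in all, and 10 were tested. None of the 10 was a DEG by edgeR, DESeq2 or limma-voom (1 had an unadjusted edgeR p under 0.05), and the summed level of all 24 listed was 19.99 to 20.9 CPM in the control libraries and 17.6 to 19.1 CPM in the 4-OHT ATII CM libraries. KRT19, the highest of them per kilobase, was at 7.73 ± 1.20 and 6.59 ± 0.876 CPM (edgeR adjusted p = 0.417).

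Marker lists were compared between the groups. Of 10 proliferation genes, 9 were downregulated (90%, against 2.76% of all genes tested), with a median log2 fold change of -0.53. Their summed level was 375 to 396 CPM in the control libraries against 269 to 289 CPM in the 4-OHT ATII CM libraries. MKI67 fell from 41.5 ± 4.60 to 24.2 ± 0.896 CPM (log2 fold change -0.78, edgeR adjusted p = 1.01e-05) and TOP2A from 98.5 ± 4.12 to 66.7 ± 4.58 CPM (-0.56, edgeR adjusted p = 8.81e-06). PCNA, the highest of them per kilobase, did not pass the test, at 68.9 ± 2.08 and 63.9 ± 4.28 CPM (edgeR adjusted p = 0.242). EZH2 and LMNB1 moved in the same direction as these genes, and the part of the proliferation genes in any result given here was not tested. In bulk RNA, fewer cells with a transcript and less of it per cell cannot be told apart. Of 10 fibroblast markers, 5 were upregulated (COL3A1, DCN, LUM, PDGFRA and FBLN1) and 0 downregulated. The upregulated share was thus 50%, against 2.95% of all genes tested. The summed levels of these markers overlapped between the groups, at 40180 to 43647 CPM against 42212 to 43944 CPM. Among 6 endothelial markers TEK was upregulated, at 128 ± 9.06 and 167 ± 4.57 CPM, while PECAM1 and CDH5 had 0 counts in every library. Among 6 leukocyte markers CD3E and MS4A1 were at 0 counts, PTPRC had 2 counts in all, and CD14 was the only one tested, at 0.766 ± 0.178 and 1.48 ± 0.409 CPM (edgeR adjusted p = 0.0597). In the fits without a count filter, with length and GC trends removed, without control replicate 2 and without 4-OHT ATII CM replicate 1, 1 leukocyte marker passed the test.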

How the data were processed

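RNA-Seq libraries of 6 MRC5 samples (polyA RNA, NEBNext Ultra kit, paired-end) were processed by the authors with Trim Galore, HISAT2 2.1.0 on GRCh38 and featureCounts 1.6.5, and the deposited values are raw counts per Ensembl gene. The annotation release, the strand setting and the treatment of reads with several matches were not given in the sources used here, and multi-matching reads could lower paralogs. Identifiers on more than 1 line (45) were summed. Symbols came from GENCODE 44, which named 58207 of 58676 identifiers. Positions, exon lengths and exon overlaps came from the exon coordinates in the deposited count table. Groups were taken from the treatment labels.

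Genes with at least 10 counts over the 6 libraries were fitted with group as the only term by the edgeR 4.0.16 quasi-likelihood test (TMM, R 4.3.3). Benjamini-Hochberg adjustment was over 19072 genes at 0.05. The fit was also run on simulated data, in which the planted changes were larger than those of the 10 genes. DESeq2 1.42.0, limma-voom (limma 3.58.1), other size factors and filters, a replicate block, removal of length and GC trends, thinning and leaving out each library were the alternatives. Depth was 17691849 to 26389449 counts per library, and replicate pairs differed by more than sampling noise (chi-square per degree of freedom 2.12 to 6.03). Same-numbered samples of the groups did not deviate together. Named were all members, up to 6 DEGs and the highest gene per kilobase of each list, CDH1, genes at 0 counts, overlapping genes, MKI67, TOP2A and, after their values were seen, DES, KRT8, KRT18, PTPRC and fibroblast marker DEGs. The values of 1 gene of the effector list are not reported here. The members and lists were chosen with earlier results of these data known.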

Additional observations from a re-analysis of the deposited data

How the results depend on the processing

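Of 160 values of the 10 genes (16 alternative fits each), 143 kept their direction and side of the threshold, 8 lost a call, 7 gained one and 2 turned direction. CDH11 passed the test in 14 fits (log2 fold change 0.13 to 0.17) and VIM in 10 (-0.11 to -0.087), with edgeR adjusted p of 0.0606 for VIM without a count filter. ZEB1 passed with DESeq2, limma-voom, no filter and length and GC trends removed (adjusted p 0.0424, 0.0414, 0.0236 and 0.0450). CDH2 turned to -0.0013 with length and GC trends removed and to -0.000463 with the replicate block besides. With these trends removed 4 of the 10 genes were called (ZEB2 added at 0.18, edgeR adjusted p = 0.0325, and 0.0290 with the replicate block besides), and leaving out 1 library gave 0 to 3. Over all genes, upregulated DEGs numbered 875 without a filter and 289 to 696 without 1 library, and downregulated DEGs 244 to 834, the last without control replicate 2. DEGs of the lists around the 10 genes numbered 12 to 21 of 83 tested without 1 library, against 21, lowest without 4-OHT ATII CM replicate 2. The log2 difference of the ZEB1 to ZEB2 ratio lay between -0.024 (without control replicate 2) and 0.032, at -0.015 without 4-OHT ATII CM replicate 3. The causes were not tested.

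The replicate numbers did not pair the samples (correlations of same-numbered deviations -0.014, -0.10 and -0.093). With the replicate block 502 genes were upregulated, 483 downregulated and 1 of the 10 genes was called, VIM having an edgeR adjusted p of 0.0570. Among the 10 genes SNAI1 had the fewest counts, at 175 to 292 per library.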
